A study of Mus musculus with 6 samples.

Results

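The 39 genes described here are imprinted mouse genes, taken by symbol from a list of known imprinted genes and all found among the 45583 rows of a count table of fetal mouse cortex. By background knowledge they fall into 17 clusters or single loci. Here 22 genes are counted as active on the copy inherited from the father and 14 on the copy from the mother. A further 3 (Grb10, Ddc and Gnas) are set apart because their active copy depends on cell type or isoform. This grouping is simplified, since imprinting of some other genes, Igf2r among them, also differs between cell types. The study asked how exposure to bisphenol A (BPA), a plastics chemical, before birth affects RNA in the brain. The 6 libraries came from male fetuses labelled as wild type and Sry-positive, of the Cyp19-EGFP strain. The study's methods describe this strain as mice on an FVBN background that carry a bacterial artificial chromosome with green fluorescent protein under the control of the aromatase gene. Dams received daily subcutaneous injections from GD10.5 to GD14.5 (GD, gestation day), of 50 µg/kg BPA in the BPA group (n = 3) and of vehicle (peanut oil, with ethanol as solvent per the study's methods) in the other group (n = 3), and the fetal cortex was collected at GD15.5 per the labels (a later stage is named where the study describes its findings). The labels number fetuses and not dams, so whether fetuses of a group shared a litter is not known, and p-values measure only the spread between these samples.

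An imprinted gene is expressed mainly or only from the copy of one parent, because DNA methylation laid down in the egg or sperm at an imprinting control region is kept in the cells of the embryo. The protein ZFP57 reads the methylated hexamer TGCCGC at such regions and recruits TRIM28, which helps to keep the mark. Many imprinted genes control fetal growth, placental function and the development of neurons, and several lie beside a long noncoding RNA made from the opposite parental copy. The counts were not split by allele, so the parental origin given here is background and was not measured.

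The imprinting mark itself was not measured either. RefSeq gives 300-base promoter windows (250 bases before the start and 50 after it, build GRCm38.p6) for 30 of the 39 genes, 46 windows in all. The hexamer TGCCGC, searched on both strands (the reverse complement is GCGGCA), occurred in 12 of these 46 windows (26.1%), against 3813 of 32851 windows of all genes (11.6%). By parental origin it occurred in 7 of 25 windows of paternally expressed genes (28%) and 4 of 13 windows of maternally expressed genes (30.8%). For the 3 genes with a variable copy it occurred in 1 of 8 windows (12.5%). The median window of the imprinted genes held 13.5 CpG pairs and 55.8% G and C, against 7 pairs and 52.7% over all windows. Windows of a gene can overlap, as those of Mest at chr6:30737800 and chr6:30737803 do, so the same hexamer can be counted more than once. The hexamer itself holds a CpG pair, and the part of the CpG difference in its share was not tested. The matches are letters in a window and no measure of binding.

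Windows of 4 paternally expressed loci are shown because these genes are among those described below and because they span the range from 0 to 2 hexamers. Capitals mark the hexamer on either strand, and each sequence is written 5′ to 3′ on the strand of the gene. The Nnat window is chr2:157559828-157560127 on the plus strand, with 1 hexamer and 17 CpG pairs. Mest has several windows, and the one shown is chr6:30737800-30738099 on the plus strand, with 2 hexamers and 17 CpG pairs. Another Mest window, chr6:30733256-30733555, held 0 hexamers and 8 CpG pairs. The Nap1l5 window is chr6:58907077-58907376 on the minus strand, with 2 hexamers and 17 CpG pairs. The Peg3 window, chr7:6730370-6730669 on the minus strand, held 13 CpG pairs and no hexamer, and it also contains the start of Usp29, which is read in the opposite direction from a start 147 bases away.
Nnat: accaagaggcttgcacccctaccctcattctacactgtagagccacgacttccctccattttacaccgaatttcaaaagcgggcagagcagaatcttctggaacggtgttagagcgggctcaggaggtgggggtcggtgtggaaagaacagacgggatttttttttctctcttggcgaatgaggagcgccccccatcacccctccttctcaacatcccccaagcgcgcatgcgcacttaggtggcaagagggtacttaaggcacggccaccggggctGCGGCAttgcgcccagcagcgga
Mest: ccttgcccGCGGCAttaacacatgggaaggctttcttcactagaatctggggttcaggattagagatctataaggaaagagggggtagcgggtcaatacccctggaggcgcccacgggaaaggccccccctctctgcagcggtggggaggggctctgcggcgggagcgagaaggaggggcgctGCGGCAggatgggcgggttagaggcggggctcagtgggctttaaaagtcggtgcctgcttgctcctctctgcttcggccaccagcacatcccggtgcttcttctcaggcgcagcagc
Nap1l5: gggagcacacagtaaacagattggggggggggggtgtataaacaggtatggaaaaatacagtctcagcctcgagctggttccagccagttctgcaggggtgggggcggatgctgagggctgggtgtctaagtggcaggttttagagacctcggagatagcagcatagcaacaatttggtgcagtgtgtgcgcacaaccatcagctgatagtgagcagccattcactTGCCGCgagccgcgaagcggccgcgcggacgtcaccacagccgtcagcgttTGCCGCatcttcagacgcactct
Peg3: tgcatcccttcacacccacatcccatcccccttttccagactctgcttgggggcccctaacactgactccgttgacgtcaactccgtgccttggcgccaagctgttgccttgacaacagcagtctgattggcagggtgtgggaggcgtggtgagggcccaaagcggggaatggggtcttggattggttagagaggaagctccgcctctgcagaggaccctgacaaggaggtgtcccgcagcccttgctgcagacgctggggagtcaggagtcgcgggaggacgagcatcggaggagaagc

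The libraries held 3444601 to 7180835 counts, and BPA library 3 was the shallowest. Levels are given as CPM, the count of a gene relative to the TMM-scaled total of its library, and per kilobase of exon where genes are compared with each other. Transcripts of the choroid plexus (10 markers, none at 0) summed to 264 CPM in vehicle library 2 and 413 CPM in BPA library 2, against 32.5 to 42.6 CPM in the other 4 libraries. Ventral telencephalon markers (12 genes, none at 0) summed to 1126 to 1285 CPM in vehicle and 972 to 1078 CPM in BPA libraries, so that the groups did not overlap. All 12 of these markers had lower values in BPA. In edgeR's quasi-likelihood test 6 of them had an unadjusted p under 0.05 and none passed the adjusted threshold of 0.1. Over all genes tested, 50.5% had a log2 fold change above 0 and 2.20% an unadjusted p under 0.05, 1.18% with lower values in BPA. Dorsal pallium markers, which mark the cortex itself, summed to 3302 to 3841 CPM and 3523 to 3764 CPM and overlapped. In bulk tissue, fewer cells of a type and less RNA per cell cannot be told apart.

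Of the 39 genes, 31 passed the filter on low counts and were tested. The 8 others were Phlda2, Airn, Dlk1, Meg3, Rtl1, Rian, Ddc and Kcnk9. Neuronatin (Nnat), a small membrane protein of the endoplasmic reticulum in developing neurons, stood far above the rest at 1080.0 CPM per kb. Its lowest library, at 900.0 CPM per kb, was above the highest of the next gene. That gene was necdin (Ndn), a growth suppressor of postmitotic neurons, with libraries from 80.2 to 106.6 CPM per kb. Then came Peg13 at 49.9, Mest at 41.7, H19 at 40.0, Snrpn at 35.9, Grb10 at 31.0 and Cdkn1c at 26.4 CPM per kb. From Peg13 to Cdkn1c, neighbours in this order overlapped over the 6 libraries. Peg13, at 44.4 to 58.3 CPM per kb, did not overlap Ndn. Nnat alone gave 41.9% to 51.6% of the summed CPM of the 39 genes.

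**Figure D1:**
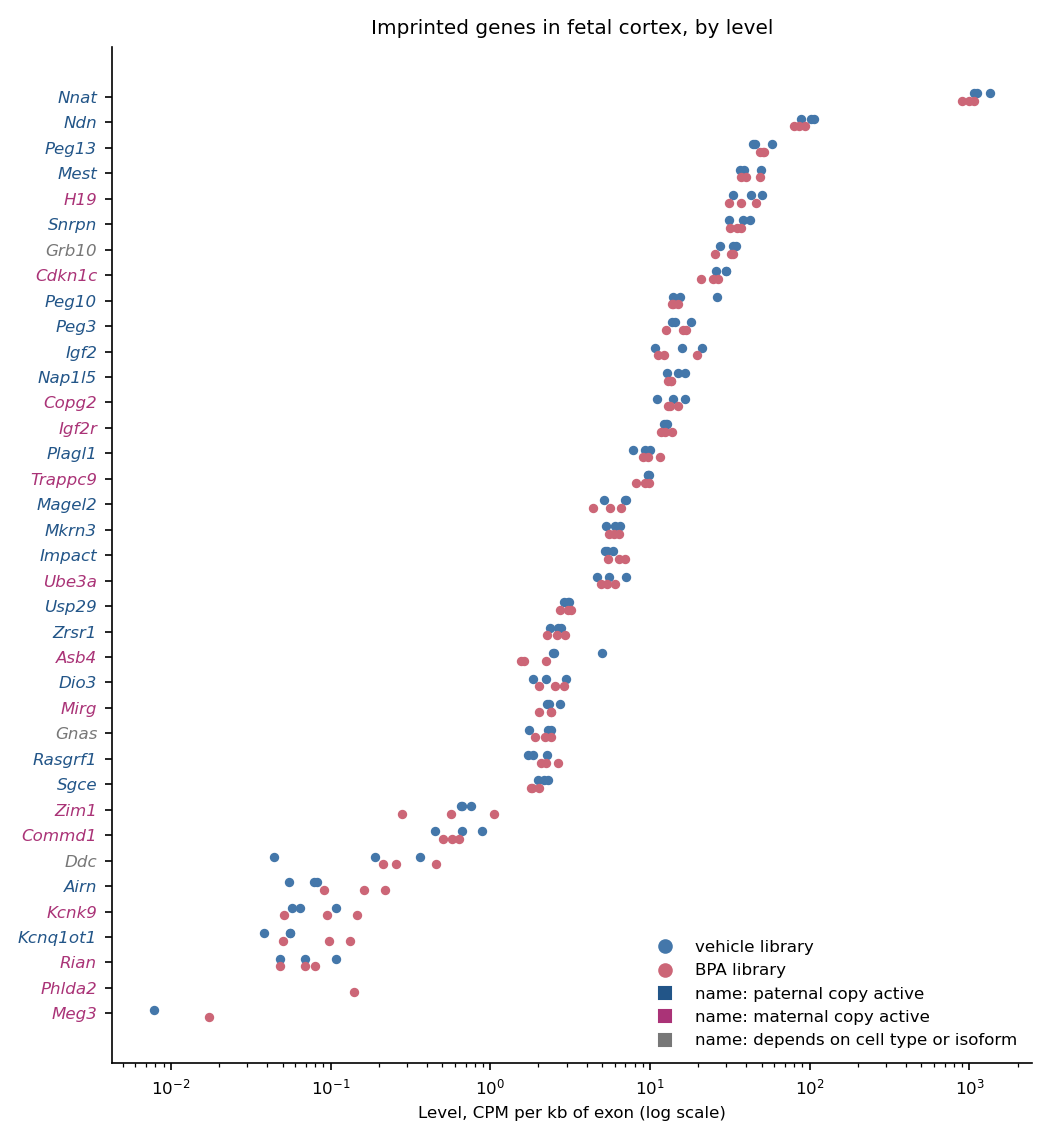
Level of each imprinted gene in CPM per kb of exon on a log axis, with 1 point per library (blue vehicle, red BPA, 3 each) and gene names coloured by the parental copy known to be active. Dlk1 and Rtl1 had 0 counts and libraries at 0 are not drawn. Nnat ranges from 900.0 to 1347 CPM per kb, apart from all other genes.

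The summed level of the 39 genes was 4392 to 4779 CPM in vehicle and 3896 to 4326 CPM in BPA libraries. The 22 paternally expressed genes made up most of this, with 3678, 3899 and 3520.3 CPM in vehicle and 3284, 3465 and 3105 CPM in BPA libraries 1, 2 and 3. All 3 BPA sums lay under the lowest vehicle sum. Without Nnat the other 21 genes summed to 1739, 1435 and 1487 CPM in vehicle and 1457, 1522 and 1459 CPM in BPA libraries, and the groups overlapped. The 14 maternally expressed genes summed to 609, 554 and 601 CPM in vehicle and 572, 541 and 538 CPM in BPA libraries, and these overlapped. The 3 genes with a variable copy summed to 270.4 to 343 CPM in vehicle and 254 to 328 CPM in BPA libraries.

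No imprinted gene passed the adjusted threshold of 0.1 in edgeR's quasi-likelihood test, where all 31 had an adjusted p of 1, and neither did any of the 13741 genes tested (0%). In DESeq2, 3 of all genes passed it, none of them imprinted genes listed here. At unadjusted p under 0.05 there were 4 imprinted genes of 31, against 302 of all genes (2.20%), 140 higher in BPA (1.02%) and 162 lower (1.18%). The 4 were Asb4, Peg10 and Nnat, with lower values in BPA, and Kcnq1ot1, with higher values. The vehicle and BPA libraries did not overlap for 1 imprinted gene, Asb4, against 928 of all genes (6.75%), 439 higher in BPA (3.19%) and 489 lower (3.56%). Of the 31 genes, 10 had a log2 fold change above 0 and 21 one at or under 0, with a median of -0.08, against 50.5% above 0 and a median of 0.002 over all genes. Among the maternally expressed genes 1 of 10 lay above 0 (median -0.12), and among the paternally expressed ones 8 of 19 (median -0.02). This split rested on vehicle library 1, since without it 16 genes lay above 0 and 15 under it, with a median of 0.001. For 25 of the 31 genes the 95% interval of the difference lay within 1.5-fold in either direction, and for 29 within 2-fold. Over all 13741 genes tested these numbers were 9777 and 12624.

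**Figure D2:**
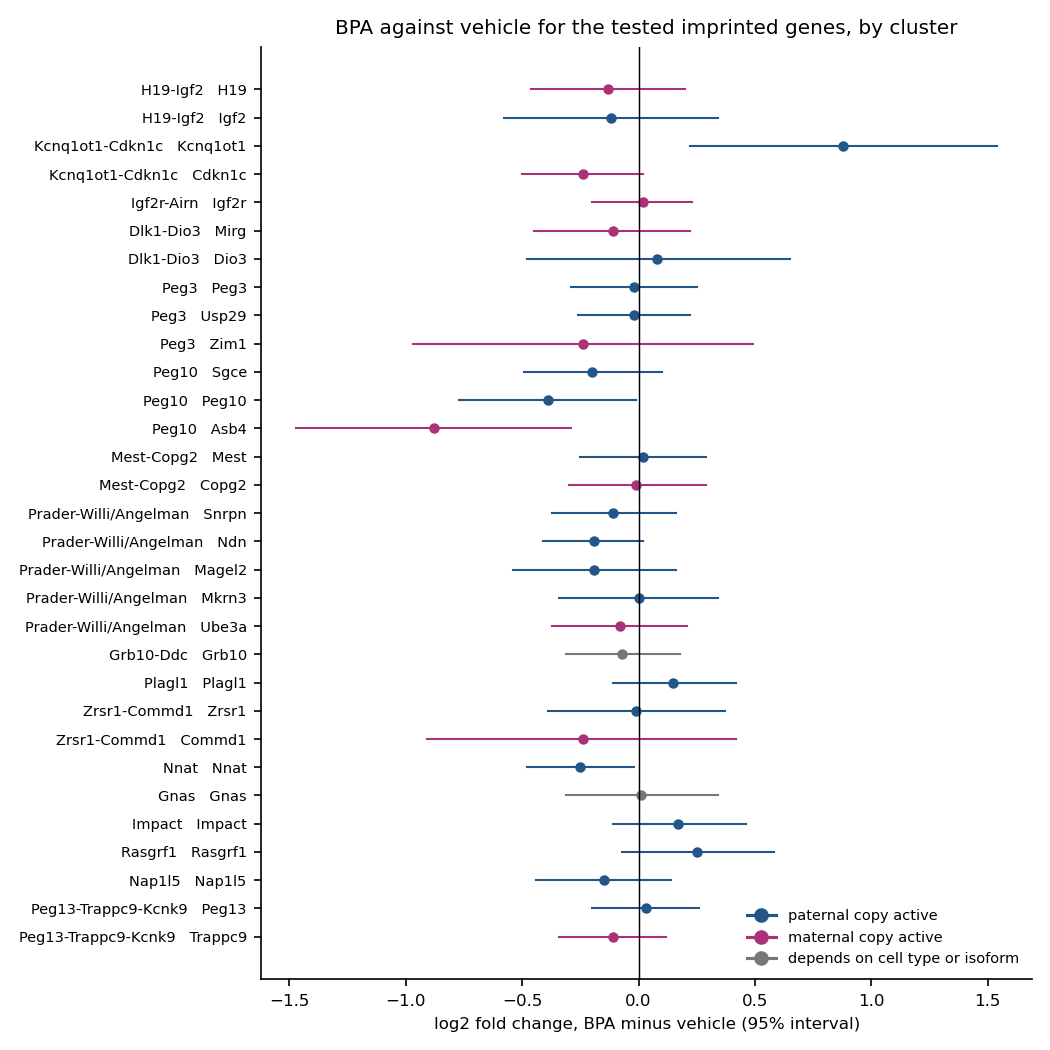
Log2 fold change (BPA minus vehicle) with its 95% interval for the 31 tested imprinted genes, grouped by cluster and coloured by the parental copy known to be active. The intervals of Asb4, Peg10, Nnat and Kcnq1ot1 leave out 0, and those of the other genes cross it.

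The Peg10 cluster on chromosome 6 held 2 of the 4 genes. Peg10, a gene derived from a retrotransposon and needed in the placenta, and Sgce, which encodes epsilon-sarcoglycan, are both paternally expressed and start 99 bases apart in opposite directions. Asb4, a maternally expressed gene for a subunit that selects substrates of a ubiquitin ligase, lies downstream (chr6:5383386-5433022, plus strand, GRCm38). Asb4 measured 19.7, 9.71 and 9.86 CPM in vehicle libraries 1, 2 and 3, and 6.12, 8.78 and 6.42 CPM in BPA libraries 1, 2 and 3. Every BPA library lay under every vehicle library, and vehicle library 1 stood apart above all others. The log2 fold change was -0.88 (SE 0.278, 95% interval -1.47 to -0.29, edgeR unadjusted p = 0.00632, adjusted p = 1). Without vehicle library 1 it was -0.45 (edgeR unadjusted p = 0.0836, adjusted p = 0.999). Without the low-count filter, over 23501 genes, edgeR's adjusted p for Asb4 was 0.0431, the only imprinted gene past the threshold in any setting tried. That fit kept vehicle library 1 and gave Asb4 a smaller SE (0.212), so it does not remove the dependence on that library. Without both libraries rich in choroid plexus transcripts the log2 fold change of Asb4 was -1.27 (edgeR adjusted p = 0.11).

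Peg10 (chr6:4747306-4760517, plus strand) measured 175, 102.6 and 92.5 CPM in vehicle libraries 1, 2 and 3. In BPA libraries 1, 2 and 3 it measured 90.9, 99.1 and 92.8 CPM. Again vehicle library 1 stood above the rest, and the other 5 libraries lay close together with the groups mixed. The log2 fold change of -0.39 (SE 0.179, edgeR unadjusted p = 0.0443, adjusted p = 1) became -0.05 (unadjusted p = 0.67, adjusted p = 0.999) without that library. It also missed an unadjusted p of 0.05 in DESeq2 and limma-voom, and without BPA library 1 or BPA library 3. Sgce did not share the high vehicle library 1, at 23.1, 21.1 and 24.5 CPM in vehicle and 19.3, 21.3 and 18.96 CPM in BPA libraries, with a log2 fold change of -0.20 (SE 0.140). The log2 ratio of Peg10 to Sgce was 2.92, 2.27 and 1.91 in vehicle and 2.23, 2.21 and 2.27 in BPA libraries (exact two-sided permutation test, p = 0.7).

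Levels of the ventral telencephalon markers moved with Asb4. Nkx2-1, a transcription factor of the medial ganglionic eminence, measured 35.9 ± 8.79 CPM in vehicle and 14.8 ± 5.48 CPM in BPA libraries (SD, n = 3). As for Asb4, vehicle library 1 was the highest and BPA library 2 the highest of its group. The 10 hypothalamus markers summed to 7.18 to 8.68 CPM in vehicle and 5.54 to 6.75 CPM in BPA libraries, with Nkx2-4 and Six6 at 0, and only Otp (log2 fold change -0.45, SE 0.301) and Sim1 (0.07, SE 0.392) passed the filter. Without Otp the sums were 3.24 to 4.14 CPM and 2.76 to 3.79 CPM and overlapped. The part of the dissected tissue in the Asb4 and Peg10 values was not tested.

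**Figure D3:**
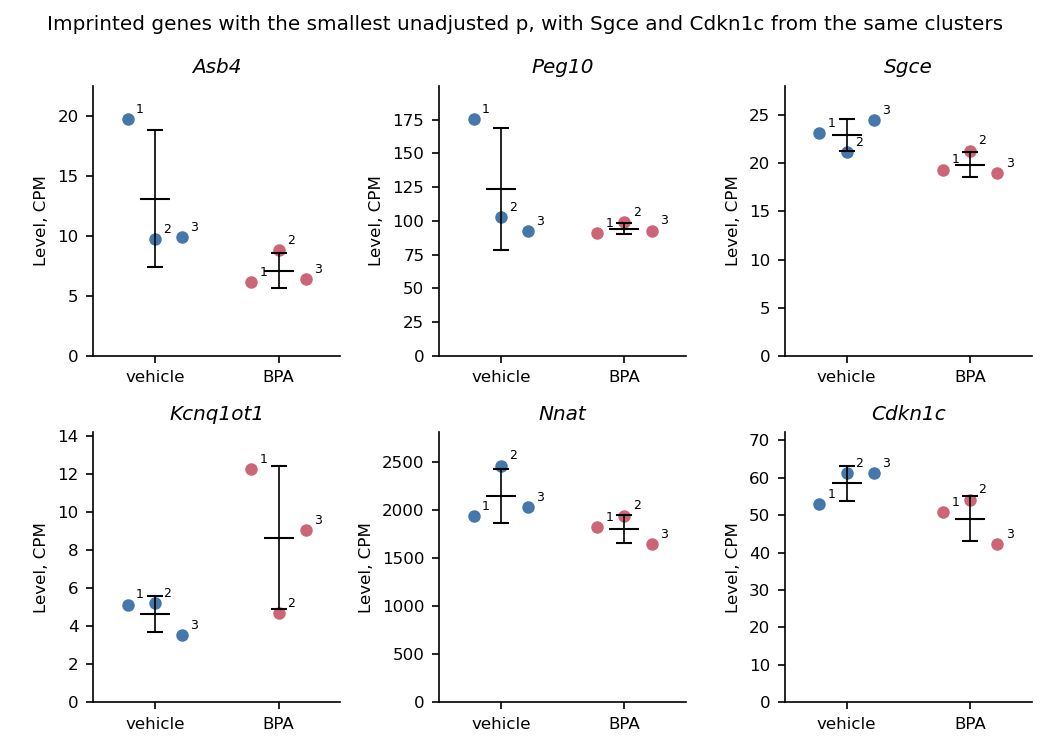
Level in CPM of 6 imprinted genes in each library, numbered 1 to 3 in each group, with the mean and SD as a bar (n = 3). Asb4 and Peg10 share a high vehicle library 1, Sgce does not, and Kcnq1ot1 is high in BPA libraries 1 and 3 only.

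The Kcnq1ot1-Cdkn1c cluster on chromosome 7 gave values on both sides of 0. Kcnq1ot1 (chr7:143203458-143296549, minus strand) is a long, mostly unspliced antisense RNA made from the paternal copy, which silences neighbouring genes on the same chromosome. It measured 5.15, 5.21 and 3.55 CPM in vehicle libraries 1, 2 and 3, and 12.2, 4.71 and 9.04 CPM in BPA libraries 1, 2 and 3. BPA libraries 1 and 3 lay above every vehicle library, and BPA library 2 lay inside the vehicle range. The log2 fold change was 0.88 (SE 0.311, 95% interval 0.22 to 1.54, edgeR unadjusted p = 0.0127, adjusted p = 1). These levels rest on 18 to 78 counts per library, and without BPA library 1 the value was 0.47 (edgeR unadjusted p = 0.176, adjusted p = 1). Without both choroid plexus-rich libraries it was 1.30 (edgeR adjusted p = 0.104). With all libraries and the counts of overlapping genes added, Kcnq1 among them, the value was 0.62 (edgeR unadjusted p = 0.0353).

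Genes that the Kcnq1ot1 RNA is known to silence in cis include Cdkn1c, an inhibitor of cyclin-dependent kinases that brings progenitors out of the cell cycle, and Phlda2, a growth regulator of the placenta. Cdkn1c measured 52.9, 61.2 and 61.1 CPM in vehicle and 50.7, 54.1 and 42.3 CPM in BPA libraries. BPA library 2 lay just above vehicle library 1, and all other BPA libraries lay under the vehicle group. The log2 fold change of Cdkn1c was -0.24 (SE 0.122, edgeR unadjusted p = 0.0674, adjusted p = 1), and 24.9% of its 50-base words also occur in the antisense gene Gm44732. Phlda2 had 1 count in BPA library 1 and 0 in the other 5 libraries. The log2 ratio of Kcnq1ot1 to Cdkn1c was -3.33, -3.52 and -4.03 in vehicle and -2.04, -3.48 and -2.19 in BPA libraries, a difference of 1.06 (exact two-sided permutation test, p = 0.2). The smallest p that 3 against 3 libraries allow is 0.1. Kcnq1, which is no member of the 39 and in which Kcnq1ot1 lies in antisense, had 7, 10 and 10 counts in vehicle and 4, 6 and 3 in BPA libraries and was not tested.

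Nnat (chr2:157560078-157562522, plus strand) lies within the gene Blcap and is paternally expressed. It measured 1939, 2464 and 2033 CPM in vehicle libraries 1, 2 and 3, and 1827, 1943 and 1646 CPM in BPA libraries 1, 2 and 3. BPA library 2 was just above vehicle library 1, and otherwise the BPA libraries lay under the vehicle ones. The log2 fold change of Nnat was -0.25 (SE 0.108, 95% interval -0.48 to -0.02, edgeR unadjusted p = 0.0347, adjusted p = 1), a small difference measured on 5642 to 17503 counts per library. It depended on vehicle library 2, without which it was -0.14 (edgeR unadjusted p = 0.208, adjusted p = 0.966), and it missed an unadjusted p of 0.05 without BPA library 1 or BPA library 3. Vehicle library 2 was one of the choroid plexus-rich libraries. The part of choroid plexus RNA in this value was not tested, and without both such libraries Nnat gave -0.19 (edgeR unadjusted p = 0.0983, adjusted p = 0.801). Blcap, which surrounds Nnat, had a log2 fold change of -0.07 (SE 0.121).

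H19 and Igf2 on chromosome 7 are the best known imprinted pair. Igf2 encodes a growth factor made from the paternal copy in most tissues. H19 is a noncoding RNA made from the maternal copy, and both genes share the same enhancers. Igf2 (chr7:142650766-142666816, minus strand) measured 61.0, 90.7 and 120.3 CPM in vehicle and 70.2, 112.6 and 64.2 CPM in BPA libraries. H19 (chr7:142575529-142578143, minus strand) measured 80.9, 105.7 and 123 CPM in vehicle and 91.7, 112.8 and 76.4 CPM in BPA libraries. Both genes were highest in vehicle library 3 and BPA library 2, and the groups overlapped throughout. The log2 fold changes were -0.13 (SE 0.154) for H19 and -0.12 (SE 0.216) for Igf2. Their ratio on the log2 scale was 0.22 ± 0.19 in vehicle and 0.21 ± 0.19 in BPA (SD, n = 3), with an exact two-sided permutation p of 0.9. Of the Igf2 words of 50 bases 62.1% occur in another gene model, chiefly Gm49394, which has no row in the count table used here.

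Meningeal transcripts were highest in the same libraries as Igf2 and H19, 1 from each group. Col1a1, a collagen of fibroblasts, measured 2.06, 2.82 and 22.7 CPM in vehicle and 5.50, 13.3 and 4.96 CPM in BPA libraries. Dcn, another fibroblast gene, was likewise highest in vehicle library 3 at 8.87 CPM and BPA library 2 at 8.29 CPM, against 0.735 to 1.75 CPM in the other 4. The whole list of 15 vessel and meninges genes, none at 0, summed to 325 CPM in vehicle library 3 and 307 CPM in BPA library 2 and to 253 to 269.6 CPM in the others. Ttr, made by the choroid plexus, was high in vehicle library 2 at 195 CPM and BPA library 2 at 308 CPM and at 2.21 to 11.9 CPM elsewhere. The part of these tissues in the Igf2 and H19 levels was not tested. Without both choroid plexus-rich libraries the log2 fold change of Igf2 was -0.40 (edgeR unadjusted p = 0.0412, adjusted p = 0.696), and without vehicle library 3 alone it was 0.12.

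**Figure D4:**
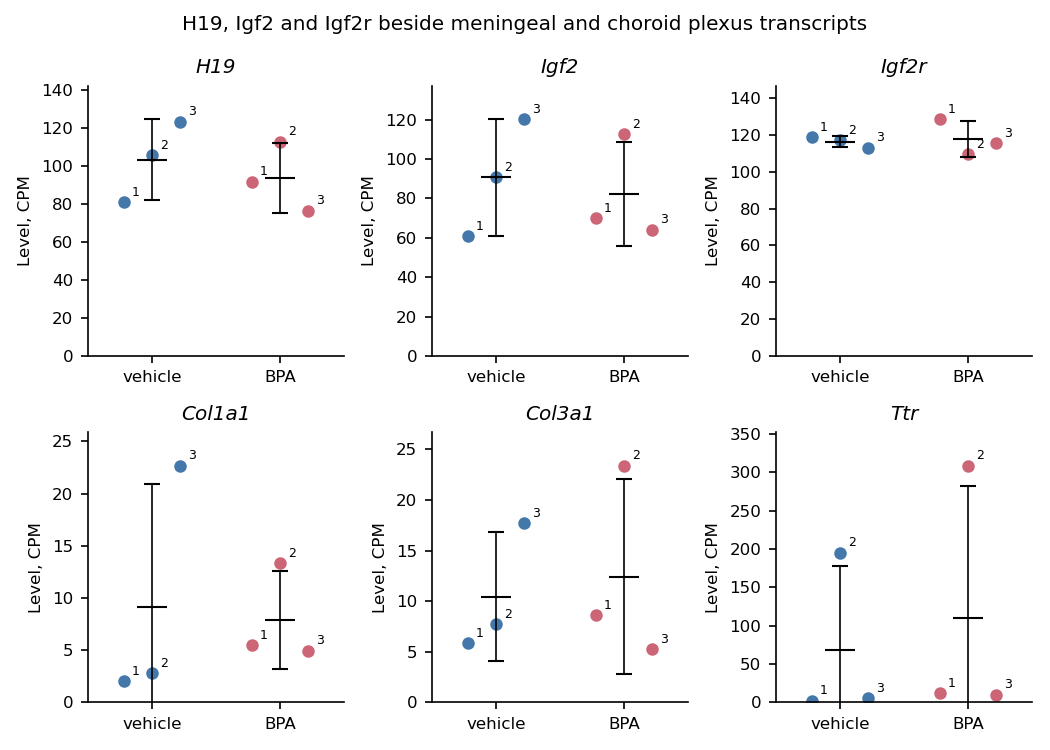
Level in CPM of H19, Igf2 and Igf2r (top) and of Col1a1, Col3a1 and Ttr (bottom) in each library, with the mean and SD as a bar (n = 3; bars are cut at 0). Igf2, H19, Col1a1 and Col3a1 are high in vehicle library 3 and BPA library 2, while Igf2r stays between 109.5 and 129 CPM.

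Igf2r, the receptor that removes IGF2 from the cell surface, was even across libraries. It measured 119, 117 and 113 CPM in vehicle and 129, 109.5 and 115.5 CPM in BPA libraries, with a log2 fold change of 0.02 (95% interval -0.20 to 0.23). Airn, the paternal antisense RNA that silences Igf2r outside neurons, had 2, 2 and 1 counts in vehicle and 5, 2 and 2 counts in BPA libraries, too few to test. Grb10, an adaptor that dampens insulin and IGF receptor signalling, measured 315, 299.9 and 251 CPM in vehicle and 301, 294 and 230.5 CPM in BPA libraries and gave -0.07 (SE 0.117). Its neighbour Ddc, dopa decarboxylase, had 11, 6 and 1 counts in vehicle and 6, 7 and 7 counts in BPA libraries. The other genes of the IGF pathway were 18 genes, the ligand Igf1, receptors, receptor substrates, binding proteins and their regulators Pappa and Stc2, and mRNA-binding proteins, of which 17 were tested, with 7 above 0 and 10 at or under it. Only Irs4, an insulin receptor substrate, had an unadjusted p under 0.05, with 3.97, 1.83 and 2.76 CPM in vehicle and 1.57, 1.63 and 1.17 CPM in BPA libraries (log2 fold change -0.92, SE 0.387, edgeR unadjusted p = 0.0309, adjusted p = 1). No gene of this list had an unadjusted p under 0.05 in DESeq2, or when any single library other than vehicle library 2 was left out. Igfbpl1 and Igf1r, both well expressed, gave -0.05 (SE 0.0927) and 0.07 (SE 0.118).

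In the Prader-Willi/Angelman region of chromosome 7, 4 paternally expressed genes and the maternally expressed Ube3a were tested. Ndn measured 394, 326 and 377 CPM in vehicle and 296, 344 and 317 CPM in BPA libraries. Vehicle library 2 lay among the BPA libraries, and without it the groups did not overlap (as for 19.7% of all genes there) and edgeR gave Ndn an unadjusted p of 0.0195 (adjusted p = 0.949), against a log2 fold change of -0.19 (SE 0.10, unadjusted p = 0.0712, adjusted p = 1) with all libraries. Magel2, a partner of ubiquitin ligases, gave -0.19 (SE 0.164), and Snrpn, a spliceosome protein of neurons, gave -0.11 (SE 0.124). Mkrn3, a ubiquitin ligase that restrains puberty, gave 0.00 (SE 0.162). Ube3a, the ubiquitin ligase lost in Angelman syndrome, gave -0.08 (SE 0.137). Snrpn and Ube3a share 26.5% and 24.8% of their 50-base words with overlapping or related gene models, so reads could be split between them. For 4 of these 5 genes the log2 fold change was under 0, and none had an unadjusted p under 0.05.

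Among the genes of the Peg3 cluster, Peg3, a zinc-finger protein of growth and maternal behaviour, measured 182 to 241 CPM in vehicle and 169 to 224 CPM in BPA libraries. Usp29, a ubiquitin-specific peptidase that shares its promoter, lay between 49.2 and 58.1 CPM in all 6 libraries, and both gave a log2 fold change of -0.02 (SE 0.126 and 0.112). Zim1, a maternally expressed zinc-finger gene of the same cluster, varied most within the BPA group, with 5.29, 5.35 and 6.11 CPM in vehicle and 4.55, 2.27 and 8.46 CPM in BPA libraries. Its lowest and its highest library were both BPA libraries, and its log2 fold change was -0.24 (SE 0.344). Mest, a paternally expressed gene related to hydrolases, measured 195, 144 and 153 CPM in vehicle and 158, 193 and 146 CPM in BPA libraries, a log2 fold change of 0.02 (SE 0.129). Copg2, a coatomer subunit whose 3′ end overlaps Mest on the opposite strand, gave -0.01 (SE 0.138), and 21.2% of the Mest words occur in Copg2. Mest and Copg2 were both highest in vehicle library 1, but their ratio did not separate the groups (exact two-sided permutation test, p = 0.9).

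None of the remaining single loci and small clusters had an unadjusted p under 0.05 with all libraries. Peg13, a noncoding RNA within an intron of Trappc9, measured 275, 209.6 and 216 CPM in vehicle and 229.9, 241 and 244 CPM in BPA libraries, with a log2 fold change of 0.03 (SE 0.109). Trappc9, a subunit of a vesicle-tethering complex, gave -0.11 (SE 0.109), and Kcnk9, a potassium channel gene of the same cluster, had 9, 5 and 4 counts in vehicle and 4, 11 and 4 counts in BPA libraries. Rasgrf1, which activates Ras in neurons, gave 0.25 (SE 0.152), Impact, a brake on the kinase GCN2, gave 0.17 (SE 0.134), and the zinc-finger gene Plagl1 gave 0.15 (SE 0.126). These 3 paternally expressed genes had the highest log2 fold changes after Kcnq1ot1. Without vehicle library 1 the value of Rasgrf1 was 0.37 (edgeR unadjusted p = 0.0358, adjusted p = 0.999). Nap1l5, a histone chaperone-like gene, gave -0.15 (SE 0.137), Zrsr1, a splicing factor retrogene within Commd1, gave -0.01 (SE 0.181), and Commd1 itself gave -0.24 (SE 0.312). Gnas, which encodes the G protein alpha-s subunit, held only 73 to 183 counts per library, or 2.15 CPM per kb, and gave 0.01 (SE 0.153), with 18.6% of its words shared with overlapping genes.

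The Dlk1-Dio3 cluster on chromosome 12 was close to empty in the middle. Dlk1, a paternally expressed membrane protein of the Notch ligand type (chr12:109452823-109463336), and Rtl1, a retrotransposon-derived gene (chr12:109589193-109600330), had 0 counts in all 6 libraries. That allows a level of up to 0.422 to 0.875 CPM per library only if their reads were counted in full, which was not tested. Meg3, the maternal noncoding RNA of the cluster (chr12:109541001-109571726), had 3 counts in all, 1 in vehicle library 2 and 2 in BPA library 1. Rian, a host of small nucleolar RNAs, had 6, 9 and 10 counts in vehicle and 8, 9 and 3 counts in BPA libraries. Beyond them the counts were higher. Mirg, a host of microRNAs, had 602 counts over the 6 libraries, Dio3, which inactivates thyroid hormone, had 176, and the flanking genes Begain and Ppp2r5c had 2186 and 4725. None of the Dlk1 words of 50 bases occurs in another gene model, and the cause of the low counts was not tested. Mirg gave a log2 fold change of -0.11 (SE 0.158) and Dio3 one of 0.08 (SE 0.264). Since Meg3 and Dlk1 were at or near 0, none of the 3 ratios that involve them could be formed.

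**Figure D5:**
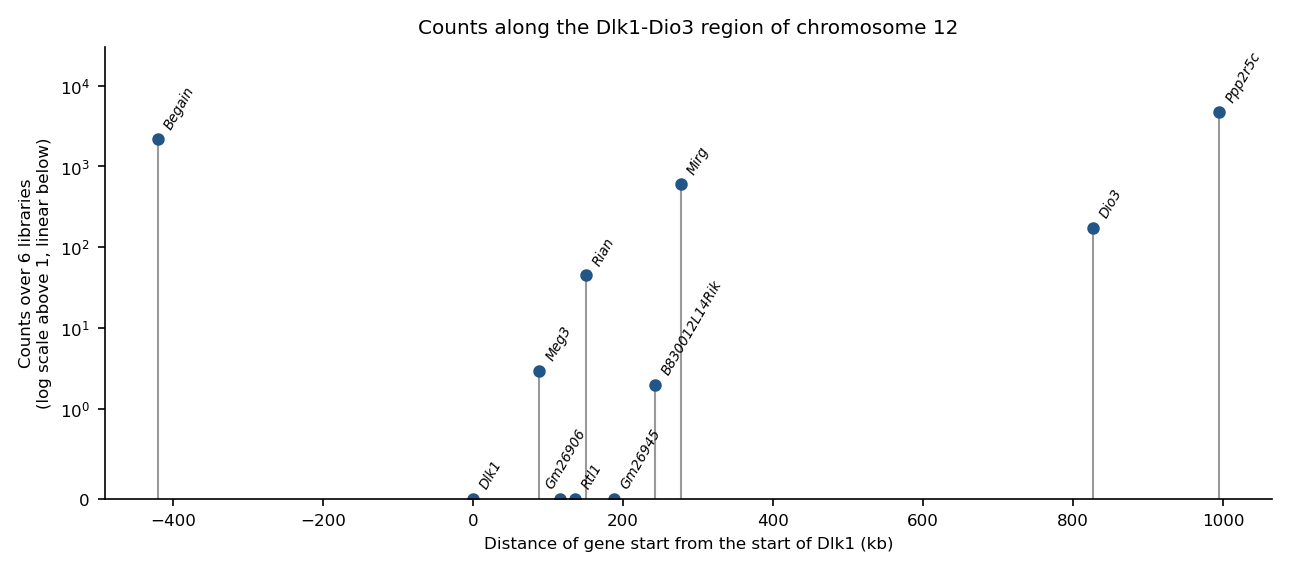
Counts summed over the 6 libraries (log scale above 1, linear below) for genes along the Dlk1-Dio3 region, by distance of the gene start from that of Dlk1. Dlk1, Rtl1, Gm26906 and Gm26945 are at 0 and Meg3 at 3, while Begain, Mirg, Dio3 and Ppp2r5c hold 176 to 4725 counts.

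In all, 8 ratios between genes of one cluster or pathway were compared. No ratio separated the groups, with exact two-sided permutation p-values from 0.2 to 1 and Benjamini-Hochberg adjusted values of 1. Usp29 to Peg3, Zrsr1 to Commd1, and Peg13 to Trappc9 differed between groups by 0.00, 0.15 and 0.15 on the log2 scale, and Igf2 to Igf2r by -0.14 with an SD of 0.53 in vehicle and 0.52 in BPA.

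The imprint maintenance genes, a list of genes that keep or remove methylation at imprinted loci, were mostly expressed and mostly even between groups. Of 20 such genes 17 were tested, and 0 had an unadjusted p under 0.05 in edgeR or DESeq2. Zfp57, the reader of the hexamer shown above, measured 263, 369 and 321 CPM in vehicle and 373, 338 and 349 CPM in BPA libraries, a log2 fold change of 0.15 (SE 0.114). Trim28, its partner, and Dnmt1, the enzyme that copies methylation at replication, gave -0.01 (SE 0.0885) and 0.06 (SE 0.0888). Dnmt3b, an enzyme of new methylation, was expressed here at only 4.75 CPM. It was the 1 gene of these 17 whose groups did not overlap, against 6.75% of all genes tested. Its log2 fold change was -0.40 (SE 0.248, edgeR unadjusted p = 0.125, adjusted p = 1). Ctcfl, Dnmt3l and Dppa3, which act mainly in germ cells and early embryos, were at 0.

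A second list held 38 further imprinted genes, of which 36 were in the table and 22 were tested. Th, tyrosine hydroxylase, was the only one with an unadjusted p under 0.05, with 3.09, 1.97 and 2.96 CPM in vehicle and 0.942, 2.11 and 1.17 CPM in BPA libraries (log2 fold change -0.87, SE 0.395, edgeR unadjusted p = 0.0427, adjusted p = 1). BPA library 2 lay inside the vehicle range, and no gene of this list had an unadjusted p under 0.05 in DESeq2, or without BPA library 1 or BPA library 3. In this list 9 genes lay above 0 and 13 at or under it, with a median of -0.04. Well expressed members such as Inpp5f and H13 gave -0.02 (SE 0.0934) and -0.05 (SE 0.0921).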

How the data were processed

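RNA was measured in 6 libraries of fetal cortex, 3 per group, grouped by the treatment label and numbered in accession order. The authors deposited whole-number read counts per gene symbol. Per the study's methods, strand-specific libraries were read as single-end 50-base reads, aligned with TopHat2 (2.0.14) to GRCm38 and counted on GENCODE models, with no statement on strand or on reads that align to more than 1 place. The deposited counts summed to 3444601 to 7180835 per library, and intervals cover counting error only where a count of 0 is given (a floor of 3 counts).

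Genes were kept with edgeR's filterByExpr (minimum count 10, minimum total 15), which left 13741, scaled by TMM and tested with the quasi-likelihood test of edgeR 4.0.16 in R 4.3.3 (no covariates, Benjamini-Hochberg over all genes tested, threshold 0.1). DESeq2 1.42.0, limma 3.58.1 (voom), other scalings and filters, sums with overlapping genes and each library left out were alternatives. How often the edgeR fit finds a 2-fold or 1.5-fold change at the spread measured for each of these genes was not tested. Within-library log2 ratios of counts (pseudocount 1) were compared by exact permutation over 20 arrangements. Gene positions, exon lengths and shared 50-base words came from GENCODE (GRCm38), promoters from RefSeq (GRCm38.p6). A spreadsheet had turned 27 row names into dates, and these rows were kept unnamed. Columns of other samples numbered 0.

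The 39 genes and the other lists were chosen with earlier results of these data known. Genes given library by library are those with an unadjusted p under 0.05, those whose groups do not overlap, the 5 highest per kilobase and those whose highest library is at least 2 times the lowest at a mean of 1 CPM or more. Genes of other lists are named at an unadjusted p under 0.05, and further ones were named after their values were seen, as were the other imprinted genes given library by library (neighbours of these genes in a cluster, and Igf2, Igf2r and Grb10 as genes of one pathway). Leaving out both choroid plexus-rich libraries was chosen after seeing the data.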

Additional observations from a re-analysis of the deposited data

How the results depend on the processing

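No paired analysis was possible because the labels give no replicate numbers, litter or batch that groups share. The count of imprinted genes past the adjusted threshold stayed at 0 in every setting except without the low-count filter, where it was 1 (Asb4), with 19 of all genes past it, 620 at unadjusted p under 0.05 and 2 of the other imprinted genes. The number of imprinted genes whose groups did not overlap was 2 with DESeq2 size factors, 3 without the filter and 3 with a filter of 1 CPM, where the shares over all genes were 6.76%, 6.10% and 6.82%. In DESeq2, 3 of all genes passed the adjusted threshold and 126 had an unadjusted p under 0.05, with 0 of the other imprinted and 0 of the IGF pathway genes. Without both choroid plexus-rich libraries, 7 imprinted genes had an unadjusted p under 0.05 (Asb4, Igf2, Impact, Kcnq1ot1, Ndn, Peg10 and Plagl1), where the share over all genes was 6.99%, and 11 of 31 did not overlap in 2 against 2 libraries, where 35.2% of all genes did not. There, 15 of all genes passed the adjusted threshold and 954 had an unadjusted p under 0.05, with 2 of the other imprinted genes and 2 of the imprint maintenance genes. In that setting log2 fold changes turned for Mirg (0.07), Peg3 (0.05), Zim1 (0.11), Mest (-0.19) and Peg13 (-0.05), and that of Copg2 turned to 0.01 in limma-voom and when summed with overlapping genes. The cause of these shifts was not tested.

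With 1 library left out, imprinted genes at unadjusted p under 0.05 numbered 1 to 6 and non-overlapping ones 1 to 7, where 12.2% to 19.7% of all genes did not overlap. All genes past the adjusted threshold numbered 0 to 1 and those at unadjusted p under 0.05 194 to 708. Other imprinted genes numbered 0 to 2, imprint maintenance genes 0 to 1, IGF pathway genes 0 to 1 and non-overlapping ratios 0 to 2. Of 186 log2 fold changes of imprinted genes so obtained, 25 turned to the other sign. These ranged from -0.29 to 0.01 for H19, -0.42 to 0.12 for Igf2, -0.05 to 0.07 for Igf2r, -0.05 to 0.30 for Dio3, -0.10 to 0.11 for Peg3, -0.07 to 0.04 for Usp29, -0.69 to 0.14 for Zim1, -0.11 to 0.17 for Mest, -0.15 to 0.15 for Copg2, -0.21 to 0.09 for Ube3a, -0.16 to 0.04 for Grb10, -0.12 to 0.09 for Zrsr1, -0.48 to 0.04 for Commd1, -0.11 to 0.10 for Gnas and -0.04 to 0.16 for Peg13. Ratios that turned ranged from -0.10 to 0.10 for H19 to Igf2, -0.44 to 0.11 for Igf2 to Igf2r, -0.36 to 0.14 for Peg10 to Sgce, -0.15 to 0.15 for Mest to Copg2 and -0.02 to 0.42 for Zrsr1 to Commd1. At 3444601 to 7180835 counts per library, genes such as Airn, Meg3, Rian, Ddc and Kcnk9 could not be tested.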
